A study of Canis lupus familiaris with 8 samples.

Results

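The proteasome genes described here were found by name among the probe sets of a dog array: a probe set counted if its platform annotation gave 1 symbol that started with PSMA, PSMB, PSMC, PSMD, PSME, PSMF or PSMG followed by a digit, with PSMB8 left out. This gave 38 symbols on 58 probe sets, of 6540 symbols and 23836 probe sets in all. PSMC3IP and PSME3IP1 share the prefix but are partner proteins rather than parts of the proteasome, which left 36 genes. Of these, 35 were bright enough to be tested, with PSMC1 at the floor of the measurement in 5 of 8 dogs, and each is given by its brightest probe set. RNA came from the frozen anterior mitral valve leaflet of 4 affected and 4 control dogs. Affected 1 was a Lhasa apso, affected 2 and affected 4 were Miniature poodles and affected 3 was a Dachshund, while every control was a beagle cross. The affected dogs had degenerative mitral valve disease, in which the leaflets thicken and deform. Each dog gave 1 array, so n = 4 per group throughout, and breed and disease changed together and cannot be told apart. The labels do not state age, sex or medication.

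The proteasome is the barrel-shaped protease that breaks down proteins tagged with ubiquitin in the cytosol and nucleus of every cell. Its core particle stacks rings of alpha subunits (PSMA), which form the gate, around rings of beta subunits (PSMB), some of which carry the active sites. A regulatory particle sits on the gate, recognises the ubiquitin chain, removes it, and unfolds the protein with a ring of ATPases (PSMC) held by non-ATPase subunits (PSMD). Other caps (PSME) open the gate without ubiquitin, PSMF1 can inhibit the core, and dedicated chaperones (PSMG and a few PSMD proteins) help build the particles and then leave. In immune cells and under interferon gamma, inducible beta subunits such as PSMB9 replace constitutive ones, and the resulting immunoproteasome favours peptides for MHC class I. Muscle uses the ubiquitin and proteasome system heavily when it wastes or remodels, and a heart valve leaflet can carry atrial muscle at its base.

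The arrays shared a trimmed mean of 500.1, with median signals from 124 to 191. Of 12 listed markers of valve interstitial cells and fibroblasts 8 were measured. Their mean log2 signal was 12.69 to 12.92 in affected dogs and 10.70 to 13.32 in controls, where control 2 was the lowest. Not all were bright: COL6A3 was at the floor in affected 1 and at 5.61 in control 2, and POSTN was 7.39 in control 2. The mean of 16 cardiac muscle genes ranged from 10.13 (affected 3) to 13.15 (affected 2) in affected dogs and from 11.12 to 13.81 (control 2) in controls, so the leaflets held heart muscle transcripts in unequal amounts. In such bulk tissue fewer cells of a type and less RNA per cell cannot be told apart.

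Proteasome genes showed no difference between affected and control leaflets that passed the test. All values below are log2 MAS5 signals, on which a step of 1 is a 2-fold change; signals of different probe sets are not comparable as levels, so only differences between dogs are read. Of 35 genes, 14 had a higher and 21 a lower mean in affected dogs. The median difference (affected minus control) was -0.059, against -0.0056 over 5438 genes. The differences ran from -0.70 (PSMD10, an assembly chaperone) to 0.70 (PSMB9, the inducible beta subunit), and 0 of 35 exceeded 1 in size, against 6.16% of all genes. In limma with Benjamini-Hochberg adjustment over 14705 probe sets, 0 of 35 genes passed an adjusted p of 0.05, where 0% of all probe sets passed, and the smallest adjusted p among the 35 was 0.640. At an unadjusted p of 0.05 again 0 of 35 passed, where 4.02% of all probe sets were called higher and 3.81% lower in affected dogs. The groups did not overlap for 1 gene, PSMF1, which was lower in affected dogs, where 2.35% of all probe sets were higher and 2.31% lower without overlap.

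**Figure D1:**
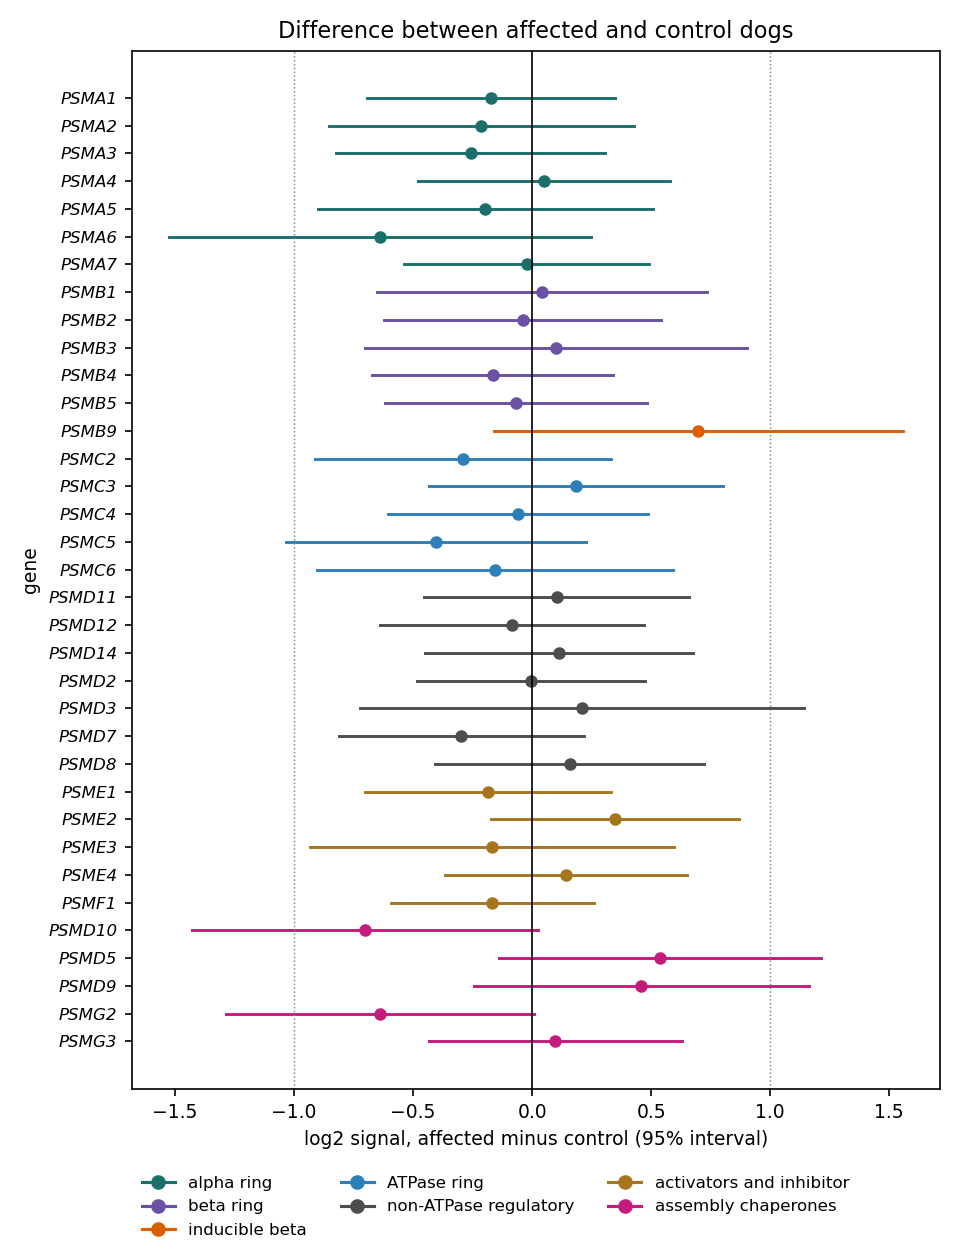
Difference in log2 signal between affected and control dogs for the 35 proteasome genes (points), with the 95% interval from limma (lines, 4 dogs per group), coloured by role. Dotted lines mark -1 and 1, a 2-fold change; every interval includes 0, and the points lie between -0.70 and 0.70.

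The intervals bound how large a difference these arrays could have missed. For 27 of 35 genes the 95% interval of the difference lay inside a 2-fold change in either direction, as it did for 49.3% of all genes. The median within-group SD was 0.31 (log2) over the 35 genes and 0.44 over all genes, with the narrowest in PSMF1 (0.074) and the widest in PSMD3 (0.69). The number of arrays limits the precision, and a p that misses the threshold does not show that the groups are alike.

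The alpha ring was described by 7 of its 8 listed genes, PSMA1 to PSMA7. Of these 6 had a lower and 1 a higher mean in affected dogs, with a median difference of -0.20. PSMA6 differed most: its log2 signal was 9.36, 9.40, 10.77 and 10.56 in affected dogs 1 to 4, against 10.97, 11.10, 9.91 and 10.68 in control dogs 1 to 4. Affected 1 and affected 2 were the low dogs, the other affected dogs lay within the control range, and the groups overlapped. The difference was -0.64 ± 0.40 (SE, adjusted p = 0.705), and -0.42 without affected 1. The other tested probe sets of PSMA6 differed by -0.23 ± 0.28 and -0.31 ± 0.30, in the same direction and by less.

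PSMA3 had 11.01, 10.80, 11.29 and 11.65 in affected dogs and 11.50, 11.22, 11.79 and 11.28 in controls, a difference of -0.26 ± 0.25 (adjusted p = 0.795), and -0.13 without affected 2. PSMA2 had 10.73, 10.80, 11.53 and 11.50 in affected dogs and 11.46, 11.83, 10.98 and 11.15 in controls, a difference of -0.21 ± 0.29 (adjusted p = 0.850), and -0.056 without control 2. Affected 2 was the lowest dog for PSMA3 and affected 1 for PSMA2, and the groups overlapped for both. A dimmer probe set of PSMA3 ran the other way, at 0.26 ± 0.30. The remaining alpha genes were closer to 0, with PSMA5 at -0.20, PSMA1 at -0.17, PSMA7 at -0.023 and PSMA4 at 0.050. PSMA4 had a probe set that was dimmer on average, of the kind that can bind related sequences, at 1.33 ± 0.58. Its groups overlapped, with an unadjusted p of 0.044 in limma (adjusted p = 0.628). The probe sets of PSMA4 thus disagreed on the size of the difference.

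The beta ring was described by PSMB1 to PSMB5, since PSMB6 and PSMB7, which carry the other constitutive active sites, were not named on the array. PSMB5 holds the chymotrypsin-like site, the main target of proteasome inhibitor drugs. Its signal was 12.00, 11.23, 11.89 and 12.04 in affected dogs and 11.89, 12.13, 11.74 and 11.67 in controls. Affected 2 was the lowest of the 8 dogs and the other affected dogs lay inside the control range. The difference was -0.068 ± 0.25 with a 95% interval from -0.62 to 0.48 (adjusted p = 0.955). A dimmer probe set of PSMB5 differed by 0.37 ± 0.31.

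PSMB4, a subunit without an active site, had 11.96, 11.40, 12.12 and 12.10 in affected dogs and 12.06, 11.95, 12.10 and 12.14 in controls, a difference of -0.17 ± 0.23 (adjusted p = 0.853), and -0.0027 without affected 2. PSMB3 had 11.11, 9.98, 11.34 and 10.70 in affected dogs and 11.03, 10.88, 9.88 and 10.94 in controls, a difference of 0.10 ± 0.36 (adjusted p = 0.955). Affected 2 was again low for both, and control 3 was low for PSMB3. PSMB1 differed by 0.042 and PSMB2 by -0.041. The median over the 5 genes was -0.041, and affected 2 was the lowest dog for 4 of them.

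PSMB9 had the largest positive difference of the 35 genes. It is the inducible partner of the constitutive subunit PSMB6 and lies beside TAP1, the peptide transporter of class I loading, in the MHC region. Its signal was 11.48, 10.56, 11.40 and 10.97 in affected dogs and 11.15, 9.32, 10.60 and 10.55 in controls. Control 2 was the lowest by more than 1 log2 unit, affected 1 and affected 3 were the highest, and the groups overlapped through affected 2 and control 1. The difference was 0.70 ± 0.39, a fold of 1.62 with a 95% interval from 0.894 to 2.94 (adjusted p = 0.680). Without control 2 it was 0.34, so the size rested largely on that dog. PSMB10, another inducible subunit, was not named on the array.

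TAP1 had 10.24, 9.74, 10.12 and 10.38 in affected dogs and 9.63, 7.50, 9.11 and 9.01 in controls, with no overlap and a difference of 1.31 ± 0.41 (adjusted p = 0.523). Control 2 was lowest for TAP1 as for PSMB9. Of 18 interferon and class I response genes 9 were measured, 7 with a higher mean in affected dogs, with a median difference of 0.33. At an unadjusted p of 0.05, 2 of the 9 were higher and 0 lower, where 4.02% of all probe sets were higher and 3.81% lower, and at an adjusted p of 0.05 there were 0. MX2, an interferon-induced antiviral protein, differed by 0.94 ± 0.42. B2M, the light chain of class I molecules, had 14.37, 14.04, 13.83 and 13.90 in affected dogs and 13.66, 13.61, 13.78 and 13.77 in controls, a difference of 0.33 ± 0.20 (adjusted p = 0.701). TAP1 and B2M were the 2 of these 9 genes without overlap between the groups, both higher in affected dogs, as were 2.35% of all probe sets. Of 16 listed macrophage and monocyte markers 15 were measured, all with a higher mean in affected dogs, and their mean signal was 10.94, 9.72, 10.31 and 10.39 in affected dogs and 9.52, 6.56, 8.35 and 8.71 in controls. Affected 1 was highest and control 2 lowest for these markers and for PSMB9, but the groups did not overlap for the marker mean and did for PSMB9. Of these 15, MARCO was at the floor in every control. It was bright enough to be tested only through the affected dogs, so its direction was fixed beforehand. FCER1G was at the floor in controls 2, 3 and 4, so it too could be tested only through the affected dogs, and its direction was largely fixed. In control 2 FCGR1A, C1QA and AIF1 were at the floor as well, so its marker mean of 6.56 rested partly on the floor. The mean of 5 of 8 endothelial genes ranged from 10.95 to 11.37 in affected dogs and from 10.06 to 10.49 in controls, and that of 4 of 9 T and NK cell genes from 7.30 to 7.98 in affected dogs and from 7.22 to 7.96 in controls. The part of these cells in the PSMB9 values was not tested.

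**Figure D2:**
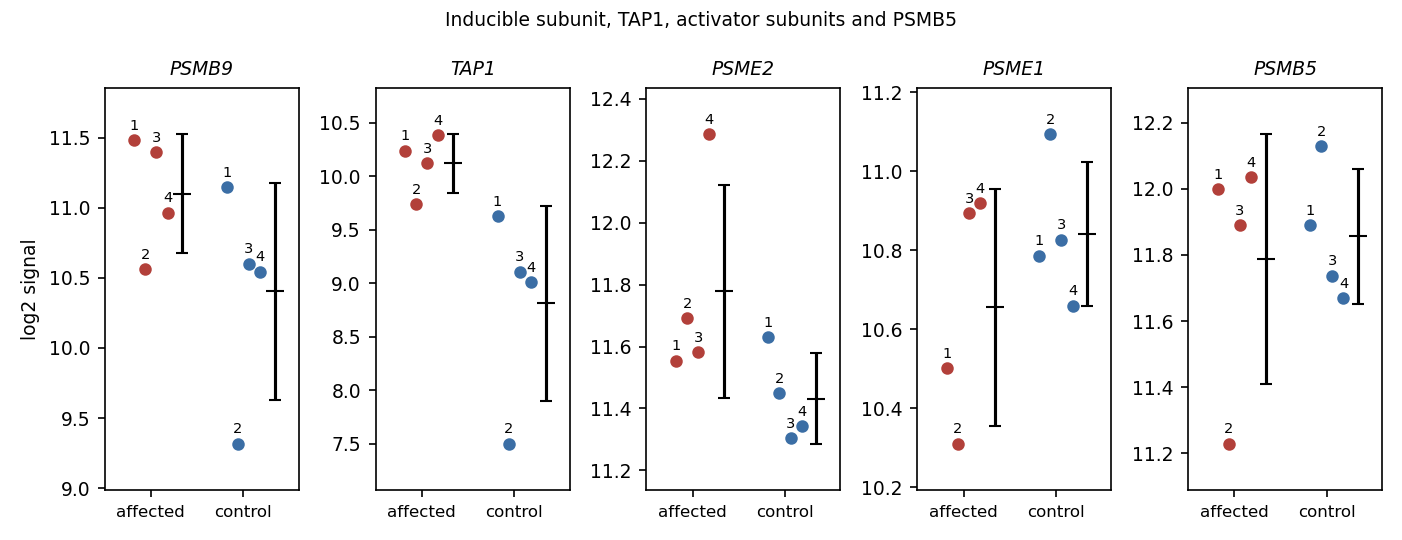
Log2 signal of PSMB9, TAP1, PSME2, PSME1 and PSMB5 in each dog (points, numbered by dog), with mean and SD of 4 dogs per group beside them; the vertical scales differ. TAP1 does not overlap between the groups, control 2 is lowest for PSMB9 (9.32) and TAP1 (7.50), and affected 2 is lowest for PSMB5 (11.23) and PSME1 (10.31).

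The activator caps did not share a direction. PSME1 and PSME2 form the cap that interferon gamma induces alongside the immunoproteasome. PSME2 had 11.55, 11.69, 11.58 and 12.29 in affected dogs and 11.63, 11.45, 11.30 and 11.34 in controls, a difference of 0.35 ± 0.24 (adjusted p = 0.717), and 0.18 without affected 4, the highest dog. PSME1 had 10.50, 10.31, 10.89 and 10.92 in affected dogs and 10.79, 11.09, 10.83 and 10.66 in controls, a difference of -0.19 ± 0.23 (adjusted p = 0.840), and -0.071 without affected 2. Set against each gene's own mean, PSME2 minus PSME1 was 0.20, 0.52, -0.17 and 0.51 in affected dogs and -0.013, -0.50, -0.38 and -0.17 in controls. Affected 1, 2 and 4 lay above every control on this measure and affected 3 lay among the controls. The brightest probe set of PSME2 is of the kind that can bind related sequences, and its other probe sets differed by 0.87 ± 0.54 and 0.089 ± 0.46.

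PSME3, the nuclear cap, differed by -0.17 ± 0.34 and PSME4, a large cap linked to the handling of histones, by 0.14 ± 0.23. Dimmer probe sets of PSME4 differed by 0.14 ± 0.23 and, in the other direction, by -0.17 ± 0.43. PSMF1, which binds and can inhibit the core, was the most even gene of all 35. It had 11.17, 11.18, 11.08 and 11.08 in affected dogs and 11.23, 11.34, 11.21 and 11.40 in controls. All 4 affected dogs lay below all 4 controls, yet the whole range over 8 dogs was 0.32. The difference was -0.17 ± 0.19, a fold of 0.890 with a 95% interval from 0.662 to 1.20 (adjusted p = 0.826), since limma widened the very small spread of this gene towards that of others.

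The ATPase ring, which unfolds the substrate and drives it into the core, was described by 5 of its 6 genes, with 4 lower and 1 higher mean in affected dogs and a median difference of -0.16. PSMC5 had 9.61, 9.98, 10.34 and 10.45 in affected dogs and 10.28, 11.02, 10.13 and 10.55 in controls, a difference of -0.40 ± 0.28 (adjusted p = 0.728), and -0.23 without control 2. PSMC2 had 10.34, 10.47, 10.71 and 11.00 in affected dogs and 11.19, 11.41, 10.49 and 10.59 in controls, a difference of -0.29 ± 0.28 (adjusted p = 0.792), and -0.13 without control 2. For both genes control 2 was the highest dog and affected 1 the lowest. PSMC3 ran the other way at 0.18 ± 0.28, with 11.78, 11.24, 10.79 and 11.02 in affected dogs and 10.93, 11.50, 10.73 and 10.93 in controls, and was at -0.0068 without affected 1. The probe set of PSMC3 is of the kind that can bind related sequences. Its other probe sets were not tested, with 8 and 7 arrays at the floor. PSMC4 differed by -0.059 and the dim PSMC6, which reached 6.71 at most, by -0.16.

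The non-ATPase regulatory genes were closer to even, with 4 of 7 measured genes higher and 3 lower in mean in affected dogs and a median difference of 0.10. PSMD14, the enzyme that cuts the ubiquitin chain off the substrate, differed by 0.11 ± 0.25 (95% interval from -0.45 to 0.68), and PSMD7, its structural partner, by -0.30 ± 0.23 (adjusted p = 0.747). PSMD7 had 10.01, 9.72, 10.04 and 10.25 in affected dogs and 10.05, 10.58, 10.12 and 10.45 in controls, with overlapping groups. PSMD2, a scaffold that binds ubiquitin-like shuttle proteins, was nearly the same in both groups at -0.0056 ± 0.22. PSMD8 had 10.91, 10.35, 10.26 and 10.66 in affected dogs and 10.49, 10.80, 10.11 and 10.14 in controls, a difference of 0.16 ± 0.25 (adjusted p = 0.876), and 0.037 without affected 1. PSMD11 and PSMD12, both of the lid of the particle, differed by 0.10 and -0.085.

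PSMD3, another lid subunit, had the widest within-group SD of the 35 genes. It had 10.04, 9.88, 8.28 and 9.98 in affected dogs and 9.01, 10.00, 9.39 and 8.94 in controls. Affected 3 lay far below the other affected dogs. The difference was 0.21 ± 0.42 (adjusted p = 0.910), 0.63 without affected 3 and 0.044 without affected 1. PSMD1, PSMD6 and PSMD13 were not named on the array, and PSMD4, the ubiquitin receptor, shared its probe set with another symbol and was not used.

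The assembly chaperones did not share a direction: 3 of 5 were higher and 2 lower in mean in affected dogs, and 3 exceeded 0.5 in size, which 25.7% of all genes did. PSMD10 (gankyrin), which guides an ATPase subunit during assembly, had 9.01, 9.36, 10.34 and 10.11 in affected dogs and 10.73, 10.04, 10.32 and 10.53 in controls. Affected 1 and affected 2 lay below every control and the other affected dogs did not. The difference was -0.70 ± 0.33, a fold of 0.615 with a 95% interval from 0.371 to 1.02 (adjusted p = 0.652). Its other tested probe set gave -0.66 ± 0.38.

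PSMG2, which pairs with PSMG1 to build the alpha ring, had 10.12, 10.31, 10.93 and 10.86 in affected dogs and 10.84, 11.77, 10.95 and 11.21 in controls, a difference of -0.64 ± 0.29 (adjusted p = 0.640). Affected 1 and affected 2 were again the low dogs and control 2 was the highest. PSMD5, a chaperone of the ATPase ring, had 8.47, 8.26, 7.39 and 7.74 in affected dogs and 7.55, 7.58, 7.06 and 7.52 in controls, a difference of 0.54 ± 0.31 (adjusted p = 0.689). Here affected 1 and affected 2 were the high dogs. PSMD9, which also acts on the ATPase ring, differed by 0.46 ± 0.32 (0.29 without affected 4), with affected 3 and affected 4 the highest dogs and affected 2 near the lowest. A dimmer probe set of PSMD9, with 2 arrays at the floor, ran the other way at -0.41 ± 0.57. PSMG3 differed by 0.097 ± 0.24, and PSMG1 and PSMG4 were not named on the array. Of 6 listed markers of smooth muscle and myofibroblasts 4 were measured. Their mean signal was 12.20, 12.25, 10.93 and 10.84 in affected dogs and 11.13, 11.97, 10.67 and 10.67 in controls. Affected 1 and affected 2, the low affected dogs for PSMD10 and PSMG2 and the high ones for PSMD5, had the highest means, while control 2 was the highest control both for these markers and for PSMG2. SYNPO2, 1 of these 4 markers, ran the other way at -0.23 ± 0.35, with affected 1 the lowest of all dogs (8.25) and affected 2 the highest (9.58). The part of smooth muscle or myofibroblasts in the chaperone values was not tested.

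**Figure D3:**
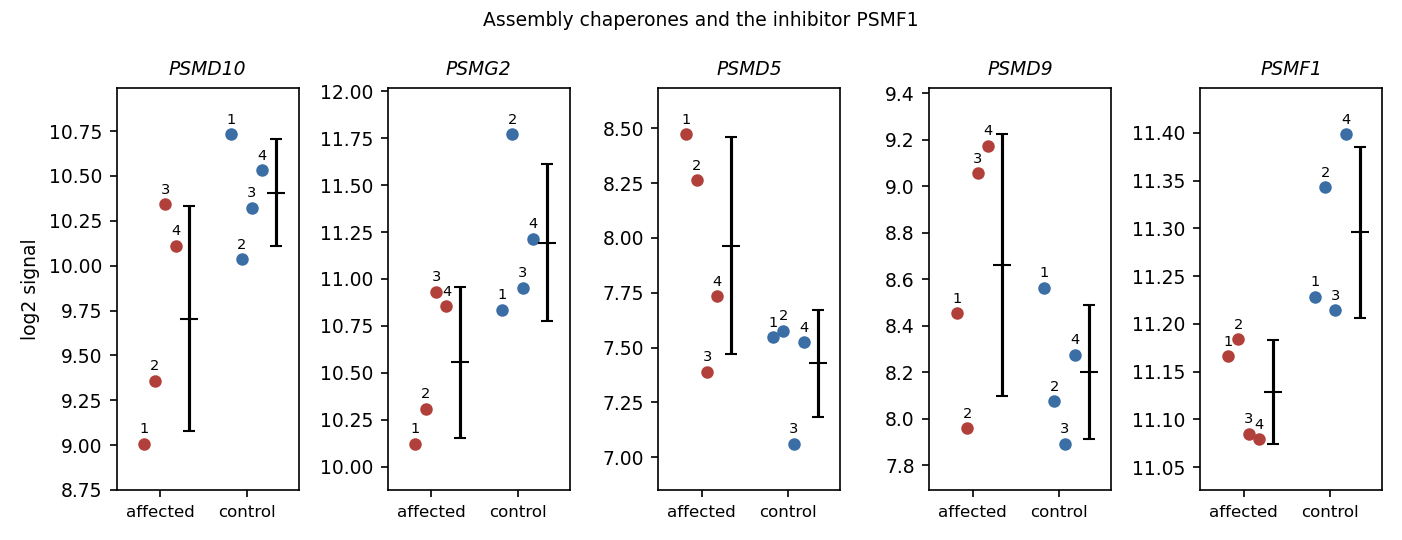
Log2 signal of PSMD10, PSMG2, PSMD5, PSMD9 and PSMF1 in each dog (points, numbered by dog), with mean and SD of 4 dogs per group beside them; the vertical scales differ. Affected 1 and 2 stand low for PSMD10 and PSMG2 and high for PSMD5, and PSMF1 separates the groups within a range of 0.32.

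The spread between dogs was larger than the difference between the groups. To set the core against the regulatory particle, each gene was centred on its own mean over the 8 dogs and the centred values were averaged. The core comprised 13 genes (alpha, beta and PSMB9) and the regulatory particle 12 genes (ATPase and non-ATPase, without the chaperones). The core mean was -0.10, -0.53, 0.22 and 0.28 in affected dogs and 0.17, 0.15, -0.16 and -0.024 in controls. The regulatory mean was -0.019, -0.17, -0.13 and 0.23 in affected dogs and -0.0006, 0.43, -0.24 and -0.096 in controls. The core averaged -0.034 ± 0.37 in affected dogs and 0.034 ± 0.16 in controls, and the regulatory particle -0.022 ± 0.18 in affected dogs and 0.022 ± 0.29 in controls (SD, n = 4 each). The medians of the gene differences were -0.068 for the core and -0.032 for the regulatory particle.

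Core minus regulatory was -0.083, -0.36, 0.35 and 0.046 in affected dogs and 0.17, -0.28, 0.085 and 0.071 in controls. The highest and the lowest value both belonged to affected dogs, affected 3 and affected 2, and the groups overlapped throughout. The mean was -0.012 ± 0.29 in affected dogs and 0.012 ± 0.20 in controls (SD, n = 4 each), so the difference between groups of -0.024 was far smaller than the spread between dogs. Without PSMB9 in the core, control 2 moved to -0.14, the difference between groups in core minus regulatory was -0.088, and that in the core mean was -0.13, against -0.068 with PSMB9. Without PSMD3 in the regulatory particle, a choice made after its value was seen, affected 3 moved to 0.26 and the difference in core minus regulatory was -0.0014. No p is given for these averages, since the genes were chosen with earlier results of these data known.

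**Figure D4:**
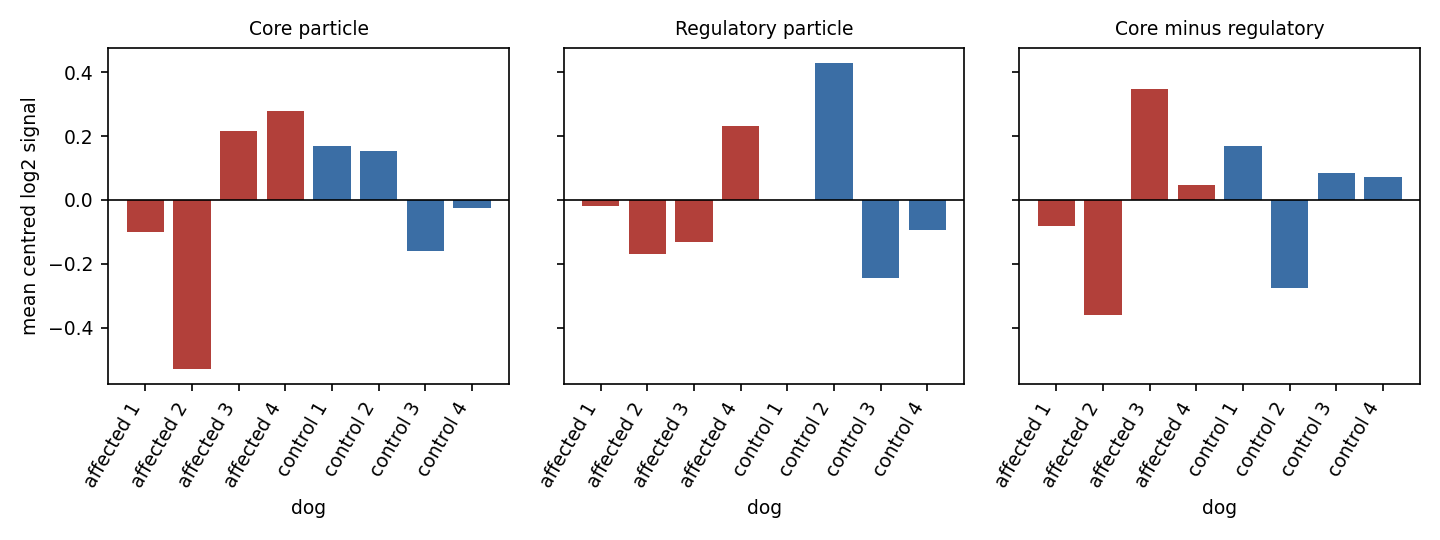
Mean centred log2 signal per dog for the 13 core genes, the 12 regulatory particle genes and their difference (bars, 1 value per dog; affected dogs red, control dogs blue). The core is lowest in affected 2 (-0.53), the regulatory particle highest in control 2 (0.43), and core minus regulatory runs from -0.36 in affected 2 to 0.35 in affected 3.

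Affected 4 and control 2 stood high and affected 2 and control 3 low. In affected 4, 30 of 35 genes lay above their own mean over the 8 dogs, and in control 2 28 did; affected 2 had 6 and control 3 had 7. Over all genes the shares above the own mean ran only from 47.8% to 53.3%. All 12 regulatory genes lay above their mean in control 2 and 0 of 12 in control 3. Of the 13 core genes 12 lay above their mean in affected 4 and 0 in affected 2. Control 2 was the highest dog for 14 of 35 genes (40%, against 21.6% of all genes) and affected 2 the lowest for 12 (34.3%, against 12.2%). Without control 2, 20 genes were higher in mean in affected dogs, and without affected 2 also 20, so the lean of 14 to 21 turned without either of these dogs. The mean of the cardiac muscle markers was 12.15, 13.15, 10.13 and 11.86 in affected dogs and 11.91, 13.81, 11.12 and 12.60 in controls, highest in control 2 and next in affected 2. The part of muscle in the proteasome signals was not tested.

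**Figure D5:**
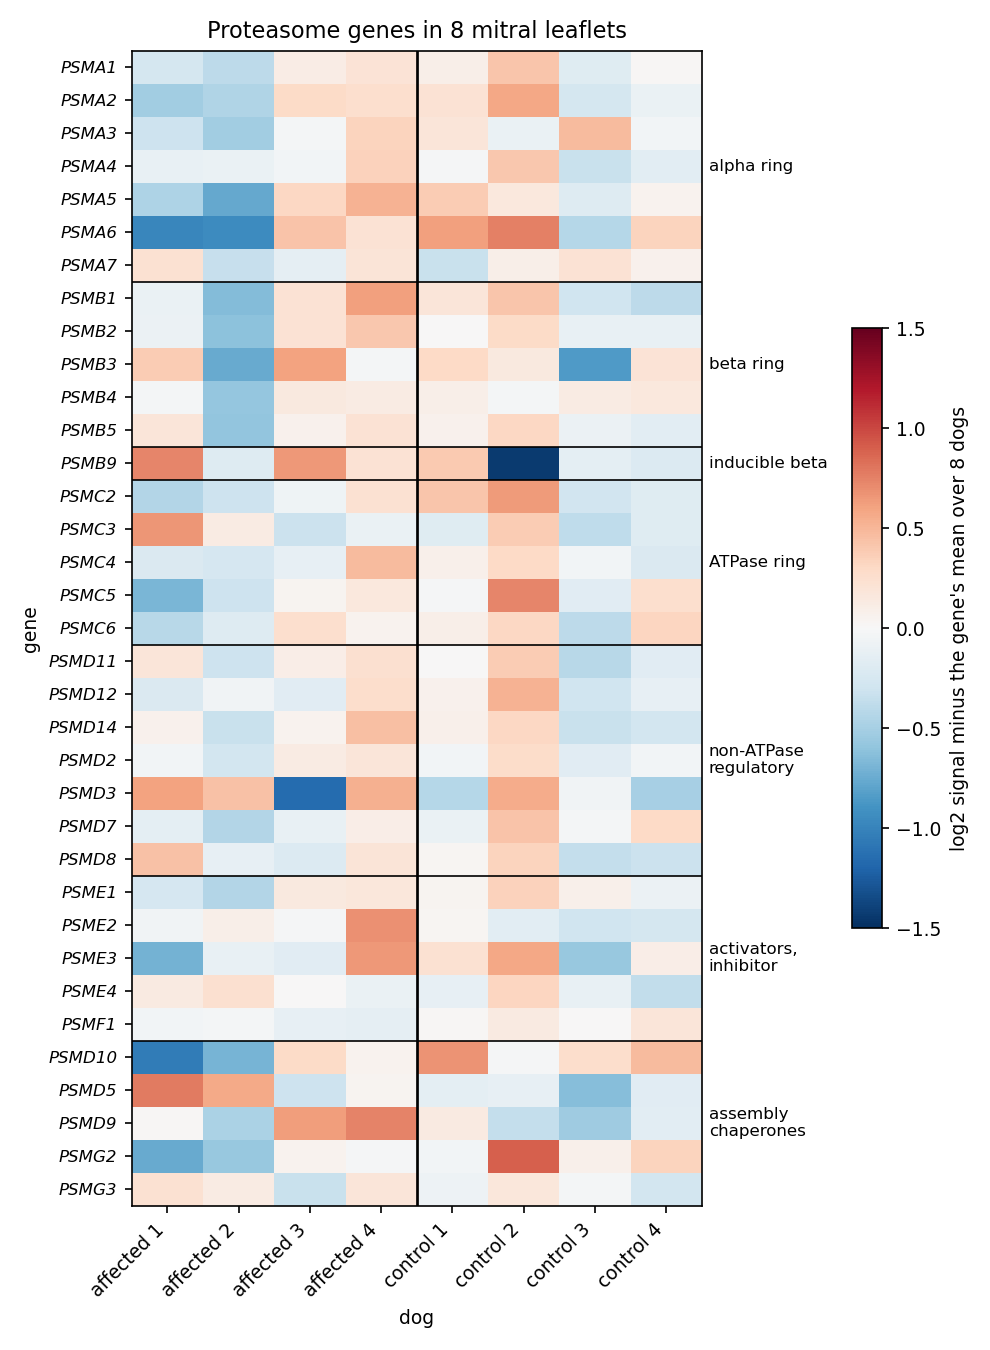
Log2 signal of the 35 proteasome genes minus each gene's mean over the 8 dogs (colour), with affected dogs left of the line, control dogs right and genes grouped by role. The column of control 2 is mostly above and that of affected 2 mostly below the mean, and PSMB9 in control 2 and PSMD3 in affected 3 run against their columns or neighbours.

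The enzymes that attach ubiquitin, which supply the proteasome with substrates, were described from a separate list. Of 30 genes of ubiquitin, its activation and its conjugation 18 were measured, 10 with a higher and 8 with a lower mean in affected dogs, and a median difference of 0.044. At an unadjusted p of 0.05, 0 of the 18 were higher and 2 lower, where 4.02% of all probe sets were higher and 3.81% lower. Those 2 were the conjugating enzymes UBE2E3, at -0.88 ± 0.32, and UBE2B, at -0.66 ± 0.26 with all affected dogs below all controls; next came UBE2L3 at 0.47 ± 0.25. UBE2B had 10.26, 11.16, 11.02 and 11.04 in affected dogs and 11.40, 11.87, 11.29 and 11.56 in controls, with affected 1 far below the rest. Of 30 ubiquitin ligase genes 16 were measured, 7 higher and 9 lower, with a median of -0.065. Among these SIAH1 differed by -1.10 ± 0.41 and CUL2, a scaffold of ligase complexes, by 0.54 ± 0.35. SMURF2, a ligase that targets TGF-beta receptors, had 9.17, 9.25, 9.30 and 9.85 in affected dogs and 9.08, 8.23, 8.79 and 8.91 in controls, a difference of 0.64 ± 0.27 (adjusted p = 0.615) with all affected dogs above all controls, though affected 1 and control 1 lay close together. At an unadjusted p of 0.05, 1 of the 16 was higher and 1 lower, beside the same 4.02% and 3.81% of all probe sets, and at an adjusted p of 0.05 there were 0. Of the 16 ligase genes 1 was higher without overlap (2.35% of all probe sets), and of the 18 conjugation genes 1 was lower (2.31%).

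Proteasome partners that are no subunits by name were measured for 8 of 25 listed genes, 2 higher and 6 lower with a median of -0.059 and 0 at an unadjusted p of 0.05. ADRM1, a ubiquitin receptor of the regulatory particle, differed by 0.36 ± 0.30, AKIRIN2, which helps import proteasomes into the nucleus, by -0.28 ± 0.31 and NFE2L1, the factor that raises proteasome genes when the proteasome is inhibited, by -0.27 ± 0.31. Of 18 listed deubiquitinases and related proteases 10 were measured, 5 in each direction, with a median of -0.058. At an unadjusted p of 0.05, 1 was higher and 1 lower (4.02% and 3.81% of all probe sets). COPS5, the catalytic subunit of the COP9 signalosome and a relative of PSMD14, is 1 of the related proteases. It had 8.56, 9.48, 9.71 and 9.70 in affected dogs and 10.15, 10.67, 9.73 and 10.01 in controls, a difference of -0.78 ± 0.32 (adjusted p = 0.614). COPS5 alone of the 10 was lower without overlap (2.31% of all probe sets), and affected 3 and control 3 lay close together. ATXN3 differed by 0.80 ± 0.36 (adjusted p = 0.633) and USP8 by -0.36 ± 0.24 (adjusted p = 0.717). No gene of these 4 lists passed an adjusted p of 0.05 over all probe sets.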

How the data were processed

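Per the labels, total RNA was labelled with biotin by the Affymetrix 1 cycle protocol, and each dog has 1 array. The authors deposited linear probe set signal intensities from MAS5, as the submitters' processing notes name it; its version, its detection calls and scan dates were not used here. Each array was brought to the same trimmed mean (2% left out at each end), a floor of 34.2 (5.10 in log2), which is the 20th percentile over all arrays, replaced lower values, and log2 was taken. Of 23836 probe sets other than 77 array controls, 14705 with at least 4 of 8 arrays above that array's 40th percentile were tested two-sided with limma 3.58.1 in R 4.3.3 (lmFit, then eBayes with trend), with Benjamini-Hochberg adjustment over all of them and a threshold of 0.05. Errors after a difference are limma standard errors, and 95% intervals come from the same fit. None of the 35 tested genes had a value at the floor.

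The brightest probe set per gene is that with the highest mean log2 signal. The members, roles and lists were chosen with earlier results of these data known. Signals in every dog are given for PSMB5, PSMB9, PSME1, PSME2, the 3 genes of smallest p per role and member and pathway genes without overlap; for pathway lists the 3 of smallest p are named. Leaving PSMD3 out of the regulatory particle was chosen after its value was seen. By gene identifier, 34 of 38 symbols were found in a RefSeq table of UU_Cfam_GSD_1.0, all under the same symbol; the annotation names no build, so no positions are given. The fit was tested on simulated data. Alternatives were other scalings, filters, floors, a pseudocount of 32, variance models, array weights, a replicate block, other probe set and particle definitions, and leaving out each dog.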

Additional observations from a re-analysis of the deposited data

Results flagged for a closer look

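Among the 35 genes in 2 groups of 4 dogs, 70 sets of 4 values in all, 5 held a dog far from the other dogs of its group by Dixon's test at the 95% level, where chance gives about 3.5 (1 in 20). PSMD3 was 8.28 in affected 3, with the next affected dog at 9.88. PSMA4 was 11.52 in affected 4, with the next affected dog at 11.13, and PSMC4 was 11.22 in affected 4, with the next at 10.61. PSMB3 was 9.88 in control 3, with the next control at 10.88, and PSMD5 was 7.06 in control 3, with the next at 7.52. These are log2 signals.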

How the results depend on the processing

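Precision was limited by 4 arrays per group. Over 14705 probe sets 0 passed in limma (1151 at an unadjusted p of 0.05), and 0 under every alternative except the replicate block, which called 4, and leaving out a dog, which gave 0 to 1 (1 without control 1). The labels do not state that dogs with the same replicate number are a pair. Of 8 dogs, 2 correlated best with their own number in the other group, a check too small to show or exclude a pairing. At an unadjusted p of 0.05, 0 proteasome genes passed. This count was 1 with quantile normalization (PSMD10), a floor at the 40th percentile (PSMG2), array weights (PSMD10) and the replicate block (PSMB9), 2 with the mean of all probe sets of a gene (PSMA4, PSMG2), and 0 to 3 when a dog was left out. It was 3 without affected 3 (PSMD5, PSMD10, PSMG2), 2 without affected 4 (PSMD10, PSMG2) and without control 1 (PSMB9, PSMG2), and 1 without affected 2 (PSMD9) and without control 2 (PSMD10). Over all probe sets the share passing was 8.21% with quantile normalization, 8.03% with the higher floor, 13.4% with array weights, 9.6% with the block, 12.5% without affected 3 and 6.49% to 8.71% without affected 2, affected 4, control 1 or control 2, and over gene means it was 8.81%. The share of proteasome genes was lower than that in each of these settings, at 5.88% or less, or 8.82% without affected 3. 14 genes were higher in affected dogs, 20 with array weights and from 11 to 20 without a dog. The median of the core ranged from -0.18 to 0.087 without a dog and was 0.0023 with array weights, that of the regulatory particle from -0.13 to 0.084 and was 0.074 with array weights, and core minus regulatory ran from -0.17 to 0.092 without a dog and was 0.069 with the mean of all probe sets. Each of these 3 summaries took both signs across the alternatives. They moved by less than the SD between dogs under every alternative run. Leaving out 1 of 4 dogs can shift a mean by only part of that SD, so this does not show stability. The causes were not tested.

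Of 419 gene differences under settings other than leaving out a dog, 409 kept their sign. Many of them could not change it. The filters, the variance models, the replicate block and omitting the floor leave the estimate of a gene as it was. Quantile normalization turned PSMB2 to 0.00018 and PSMD2 to 0.013, and median centring turned PSMA4 to -0.025 and PSMB1 to -0.033. Array weights turned PSMA7 to 0.035, PSMB2 to 0.068, PSMB5 to 0.054, PSMC4 to 0.089, PSMD12 to 0.043 and PSMD2 to 0.058. Without a dog 14 genes changed sign at least once, and their ranges were -0.058 to 0.19 for PSMA4, -0.40 to 0.027 for PSMA5, -0.14 to 0.087 for PSMA7, -0.16 to 0.26 for PSMB1, -0.18 to 0.16 for PSMB2, -0.17 to 0.37 for PSMB3, -0.15 to 0.12 for PSMB5, -0.0068 to 0.34 for PSMC3, -0.23 to 0.032 for PSMC4, -0.018 to 0.25 for PSMD11, -0.20 to 0.076 for PSMD12, -0.018 to 0.24 for PSMD14, -0.068 to 0.085 for PSMD2 and -0.41 to 0.041 for PSME3. Without changing sign, PSMA1 moved to -0.065 without control 2, PSMB4 to -0.0027 without affected 2, PSMC6 to -0.043 without affected 1, PSME4 to 0.043 and PSMG3 to 0.022 without control 4. PSMC6 was too dim to be tested without some dogs.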

Other observations

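The partner proteins with a proteasome prefix were measured on their own. PSME3IP1, which binds PSME3, had 9.03, 8.91, 9.21 and 9.18 in affected dogs and 9.54, 9.74, 9.09 and 9.50 in controls (log2 signal), a difference of -0.39 ± 0.23 (limma adjusted p = 0.698), and a dimmer probe set gave -0.22 ± 0.33. PSMC3IP, a factor of meiotic recombination in mouse, was too dim to be tested, with 2 of 8 arrays at the floor.

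Of 13 further tested probe sets of the 35 genes, 9 had the same sign as the brightest probe set of their gene. The others ran the other way, with PSMA3 at 0.26 beside -0.26 and PSMB5 at 0.37 beside -0.068. PSME4 had -0.17 beside 0.14, and PSMD9 had -0.41 beside 0.46, with 2 arrays at the floor. PSMD11 had a dimmer probe set at 0.57 ± 0.26 beside 0.10 ± 0.25 for the brightest, and PSMC2 had -0.47 beside -0.29.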
